A study of Oryctolagus cuniculus with 4 samples.

Results

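The mitochondrial carriers and the high-numbered solute carriers of intact rabbit tendon were described as 144 genes, of 20294 genes in the deposited transcript table. A gene was a member where its symbol was SLC with a family number from 25 to 52, so membership followed names and not a threshold on measured values. The members were chosen with earlier results of these data known. The members fell into 26 families: 34 mitochondrial carriers (SLC25), 21 zinc carriers (10 of SLC30 and 11 of SLC39), 20 genes of the nucleotide sugar family SLC35, 17 amino acid carriers (SLC32, SLC36, SLC38 and SLC43) and 52 genes of other families. All 144 were annotated as protein coding, 120 of them on numbered chromosomes or X and 24 on unplaced scaffolds, and 12 had 2 transcripts in the table. Of the genes set by name for description, SLC25A4, SLC25A6, SLC25A10, SLC25A34, SLC27A1, SLC35B2 and SLC43A3 had no entry under that symbol, so nothing is said of their levels. In all, 31 symbols of these families in the RefSeq annotation had no entry under that name. SLC35A1, SLC38A10, SLC39A1 and SLC52A2 were among them, so the members are not the whole of these families.

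Each of the 4 samples was the whole semitendinosus tendon, a hamstring tendon used as a graft for ligament reconstruction, from a different female New Zealand White rabbit of 193 days. The animals had no stated genetic change or drug treatment, the tendons were intact, and muscle was scraped from the surface before freezing. The series title calls the grafts allografts and its design text autografts. There was 1 group and no control, so the comparisons are between genes within a tendon and between tendons.

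Solute carriers are membrane proteins that move small molecules across a membrane along or against a gradient. SLC25 proteins sit mostly in the inner mitochondrial membrane and exchange phosphate, nucleotides, carboxylates, amino acids and cofactors between the matrix and the cytosol. SLC39 (ZIP) proteins bring zinc into the cytosol and SLC30 (ZnT) proteins take it out, into organelles or out of the cell. Many SLC35 proteins load the endoplasmic reticulum and Golgi with nucleotide sugars or sulfate donor, the substrates for the sugar chains of matrix proteoglycans and glycoproteins.

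The 4 libraries held 19759696 to 30646052 estimated counts, so that 3 counts, taken as the floor of detection, were worth 0.0979 to 0.152 CPM (counts scaled to a common library total); this covers counting error only. No pair of tendons agreed within counting noise (chi-square per degree of freedom 94.4 to 177 over 6 pairs). Tenocyte markers were present in all tendons (6 of 7 listed genes measured, none at 0, sum 32821 to 93539 CPM after scaling by edgeR's trimmed mean of M-values, TMM), although the defining gene SCX had no entry. Skeletal muscle markers were present as well: 9 of 10 genes of a common muscle list summed to 4112, 16297, 8534 and 12093 TMM-normalised CPM in tendons 1 to 4, with none at 0. Fast fibre markers (7 of 9 measured, none at 0) summed to 18.9, 96.1, 36.5 and 2448 TMM-normalised CPM, so tendon 4 stood apart. MYLPF, placed in the common muscle list, varied as the fast fibre markers did (9.67, 23.1, 8.08 and 573 TPM in tendons 1 to 4). Endothelial markers (5 of 5 measured, none at 0) summed to 340.3 to 633 TMM-normalised CPM, and the 2 of 7 erythroid markers with an entry to 0.952 to 1.40 TPM. In such whole-tissue samples, fewer cells of a type and less RNA per cell cannot be told apart.

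Levels between genes were compared in TPM, in which counts are divided by transcript length and scaled to a common total. Together the 144 members took 3099, 2886, 2840.2 and 3057 TPM in tendons 1 to 4, which is 0.297% ± 0.0127 (SD, n = 4) of all transcripts on average. A mean of at least 1 TPM was reached by 108 members (75.0%), against 63.0% of all genes and 75.4% of the genes with a symbol. At least 10 TPM was reached by 66 members (45.8%), against 43.0% of all genes and 53.0% of those with a symbol; every member has a symbol, and beside the named genes the members' share was alike at 1 TPM and lower at 10 TPM. The median member stood at 8.69 TPM, between the median of all genes (5.65 TPM) and that of the genes with a symbol (11.8 TPM).

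The mitochondrial carriers were the most abundant class, with a summed level of 1210.3, 1182, 1109 and 1295 TPM from tendon 1 to tendon 4 (1199 ± 76.6 TPM, SD, n = 4). This and the other class sums hold named genes only, and 11 SLC25 symbols of the RefSeq annotation had no entry, so a sum may miss transcripts listed without a symbol. Of the 34 SLC25 genes, 29 reached 1 TPM (85.3%, against 63.0% of all genes and 75.4% of those with a symbol). At 10 TPM there were 22 (64.7%, against 43.0% and 53.0%). The leading pair made up 44.0% of the class. SLC25A3, the phosphate carrier that supplies the matrix with the phosphate for ATP synthesis, lies at positions 77885030 to 77891468 of chromosome 4 (rabbit build OryCun2.0, plus strand). It stood at 324, 342, 314 and 360.1 TPM in tendons 1 to 4 (mean 335 ± 20.5 TPM) and had the highest TPM of all 144 members. SLC25A5, an ADP/ATP carrier (adenine nucleotide translocase 2; X, 68185489 to 68188624, plus strand), stood at 196, 195, 142 and 237 TPM (mean 193 ± 38.9 TPM). The ranges of these genes did not overlap each other or that of the next SLC25 gene. SLC25A5 was lowest in tendon 3 and highest in tendon 4. Of its 2 annotated transcripts, the one of 1147 bases took 86.0% of the gene's TPM on average. SLC25A4 and SLC25A6 encode close copies of this carrier, and how reads of such copies were counted was not tested. SLC25A31, the testis form of the carrier, had 0, 1, 0 and 19 counts in tendons 1 to 4, with 0.516 TPM in tendon 4.

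Carriers of citric acid cycle intermediates came next in TPM. In CPM, without division by length, SLC25A46 (70.8), SLC25A13 (46.3) and SLC25A12 (46.2), among others, stood above SLC25A11 (43.4) and SLC25A1 (33.3). SLC25A11, the 2-oxoglutarate/malate carrier, stood at 70.2, 84.95, 73.7 and 70.8 TPM in tendons 1 to 4 (mean 74.9 ± 6.86 TPM). SLC25A1, the citrate carrier that exports citrate for lipid synthesis, stood at 56.2, 58.01, 56.7 and 80.6 TPM (mean 62.9 ± 11.8 TPM). For SLC25A1, tendons 1 to 3 lay close together and tendon 4 lay above them, and in TMM-normalised CPM (28.4, 33.3, 29.7 and 41.00) tendon 4 was again highest. The SLC25A11 to SLC25A1 ratio of TPM was 1.25, 1.46 and 1.30 in tendons 1 to 3 and 0.878 in tendon 4, a mean log2 ratio of 0.27 ± 0.32 (SD). Flipping the signs of the 4 log2 ratios in every way (an exact two-sided permutation test) gave p = 0.25 (0.25 after Benjamini-Hochberg adjustment over 7 ratios). With 4 tendons the smallest p such an exact test can give is 0.13, so no ratio described here could pass 0.05.

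The aspartate/glutamate carriers of the malate-aspartate shuttle, which brings reducing equivalents into the matrix, were both present. SLC25A12 (aralar) stood at 36.6, 35.2, 31.1 and 40.2 TPM in tendons 1 to 4, and SLC25A13 (citrin) at 26.9, 22.9, 25.1 and 23.95 TPM. SLC25A12 was higher in each tendon, with ratios of 1.36, 1.54, 1.24 and 1.68 (mean log2 ratio 0.53 ± 0.19; exact sign-flip permutation p = 0.13, adjusted p = 0.146). This order rested on transcript length: in CPM, which is not divided by length, the mean log2 ratio was -0.01. SLC25A20, the carnitine/acylcarnitine carrier that brings fatty acyl groups to the matrix for oxidation, stood at 12.7, 15.6, 13.5 and 18.04 TPM (mean 14.9 ± 2.41 TPM).

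Iron, heme and glutathione carriers formed a middle group. SLC25A39, which imports glutathione into mitochondria, stood at 56.6, 60.1, 60.9 and 63.6 TPM in tendons 1 to 4 (mean 60.3 ± 2.87 TPM). SLC25A38, the glycine carrier needed for heme synthesis, had a mean of 41.2 ± 2.39 TPM. The mitochondrial iron importers SLC25A28 (mitoferrin 2) and SLC25A37 (mitoferrin 1) stood at 31.3 ± 3.54 and 24.3 ± 2.63 TPM. The ratio of SLC25A37 to SLC25A28 was 0.738, 0.773, 0.775 and 0.82 in tendons 1 to 4, the least variable of the ratios on the log2 scale (mean -0.37 ± 0.06; exact sign-flip permutation p = 0.13, adjusted p = 0.146). Its sign turned in CPM (mean log2 ratio 0.77).

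The rest of the 14 leading mitochondrial carriers lay between 22.2 and 41.4 TPM. They were SLC25A17, a carrier of cofactors in the peroxisome (41.4 ± 4.87 TPM), SLC25A24, a calcium-regulated ATP-magnesium/phosphate carrier (40.9 ± 3.88 TPM), SLC25A46, a protein of the outer membrane that acts in mitochondrial dynamics (38.6 ± 4.51 TPM, of which 22.3 TPM came from the more abundant of its 2 transcripts), and SLC25A27 (UCP4; 22.2 ± 8.69 TPM). SLC25A27 varied most of these: 32.1, 12.6, 17.8 and 26.4 TPM in tendons 1 to 4. Tendon 2 was lowest and tendon 1 highest for this gene. The 5 SLC25 genes under 1 TPM were SLC25A45, SLC25A18, SLC25A31, SLC25A2 and SLC25A53, with means from 0.121 to 0.339 TPM.

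**Figure D1:**
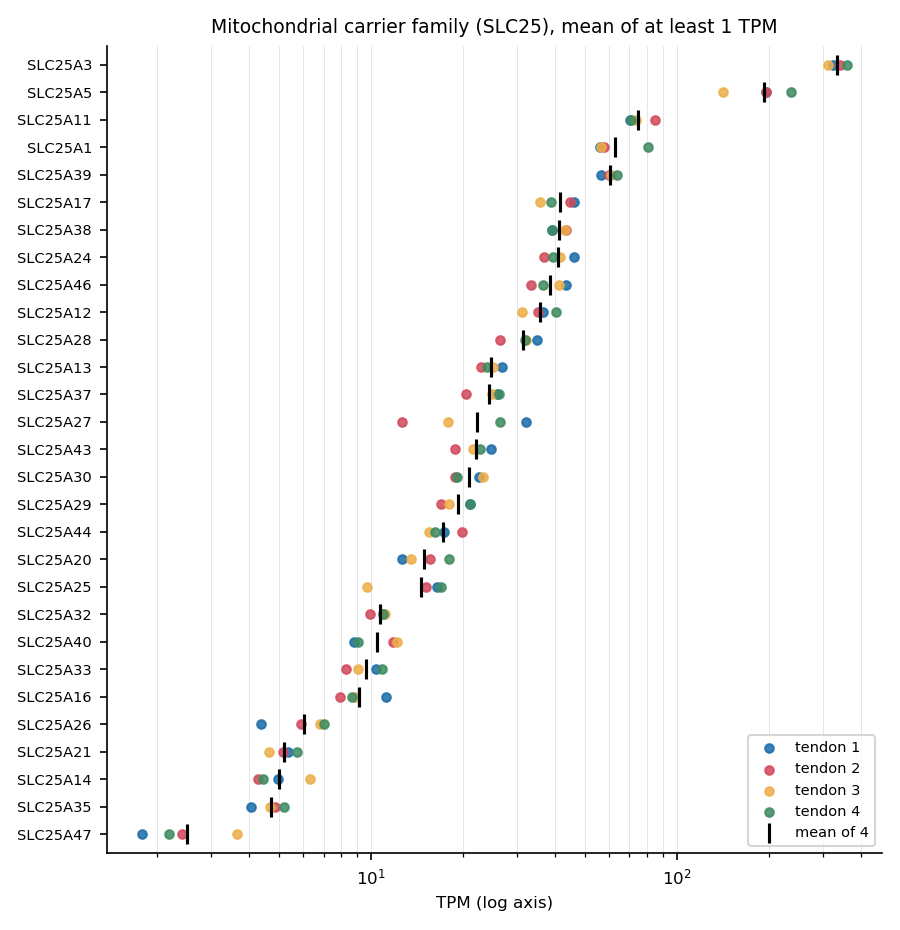
TPM of the 29 SLC25 genes whose mean reached 1 TPM, on a log axis, genes ordered by mean. Points are the 4 tendons and black bars their mean; SLC25A3 (335 TPM) and SLC25A5 (193 TPM) stand apart from the rest, and the points of SLC25A27 are spread from 12.6 to 32.1 TPM.

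Other mitochondrial transport genes gave context. In a list of 22 genes (uncoupling proteins, voltage-dependent anion channels, sideroflexins, the calcium uniporter and carnitine palmitoyltransferases), 16 had an entry and 15 of these reached 1 TPM, with a summed level of 1211 ± 131 TPM. The anion channels of the outer membrane led, with VDAC1 at 285 ± 67.0 TPM and VDAC2 at 262 ± 35.0 TPM. The uncoupling protein UCP2 stood at 16.9 ± 6.99 TPM, and UCP1, the uncoupling protein of brown fat, at 0.0914 TPM.

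The zinc carriers summed to 601, 523, 485 and 491 TPM in tendons 1 to 4 (525 ± 53.1 TPM, SD, n = 4). A mean of 1 TPM was reached by 15 of 21 (71.4%, against 63.0% of all genes and 75.4% of those with a symbol). The 11 SLC39 genes summed to 336 ± 43.3 TPM and the 10 SLC30 genes to 189 ± 13.4 TPM. SLC39A1, SLC39A3 and SLC39A4 of the RefSeq annotation had no entry under that name. The SLC39 sum, the ratio below and the ranking of zinc carriers therefore cover the measured genes only. The summed SLC30 level was 0.53, 0.517, 0.642 and 0.586 of the SLC39 level in tendons 1 to 4 (mean log2 ratio -0.82 ± 0.14; exact sign-flip permutation p = 0.13, adjusted p = 0.146).

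Both zinc carriers leading in TPM act in the secretory pathway. Their lead rested on division by transcript length: in CPM SLC39A6 led (162), followed by SLC30A5 (103), SLC39A10 (93.8) and SLC39A14 (74.9). SLC39A7 (72.2) and SLC39A13 (66.4) stood below these in CPM. SLC39A7 (ZIP7), which releases zinc from the endoplasmic reticulum and Golgi, lies at 23626322 to 23628918 of chromosome 12 (plus strand) and stood at 96.98, 108, 76.3 and 89.9 TPM in tendons 1 to 4. SLC39A13 (ZIP13), whose loss in humans causes a form of Ehlers-Danlos syndrome, a disorder of connective tissue, lies at 186727115 to 186731593 of chromosome 1 (plus strand). It stood at 118, 99.7, 66.6 and 84.00 TPM in tendons 1 to 4 (mean 91.99 ± 21.8 TPM). Tendon 3 was lowest and tendon 1 highest for SLC39A13, and their TMM-normalised CPM differed by 1.70-fold (81.5, 78.98, 48.1 and 59.00 in tendons 1 to 4). The tenocyte marker sum had the same order of tendons, which it shared with SLC39A13 and SLC43A2 alone of 91 members (2.2%, against 3.44% of all genes). Most of that sum came from COL1A1 (15218, 8838, 3672 and 5354 TPM in tendons 1 to 4) and COL1A2, and the other 4 markers had other orders in TPM: TNMD was highest in tendon 4, THBS4 and FMOD in tendon 2, and MKX was lowest in tendon 4. That likeness was read over 4 tendons and its part in the result was not tested. SLC39A14, which carries zinc, iron and manganese, stood at 25.2 ± 4.13 TPM, lower than SLC39A13 in every tendon (ratios 0.255, 0.222, 0.408 and 0.254; mean log2 ratio -1.85 ± 0.38; exact sign-flip permutation p = 0.13, adjusted p = 0.146). Without division by length that log2 ratio turned to 0.19.

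SLC30A9, linked to zinc export from mitochondria, stood at 70.95, 57.2, 64.1 and 60.1 TPM in tendons 1 to 4 (mean 63.1 ± 5.96 TPM). SLC30A5, which loads zinc into the early secretory pathway, stood at 61.1, 58.2, 52.6 and 51.7 TPM (mean 55.9 ± 4.51 TPM, of which 36.96 TPM came from the more abundant of its 2 transcripts). The plasma membrane importers SLC39A6 and SLC39A10, which act as partners, had means of 54.8 ± 7.34 and 27.8 ± 5.35 TPM. SLC30A7, a Golgi zinc carrier, stood at 20.8 ± 3.33 TPM, SLC30A1, the zinc exporter of the plasma membrane, at 19.8 ± 3.02 TPM, and SLC39A8, which carries zinc and manganese, at 12.7 ± 2.17 TPM. SLC39A6 and SLC39A10 were highest in tendon 1 and lowest in tendon 4 both in TPM and in TMM-normalised CPM.

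Of the zinc carriers, 6 lay under 1 TPM. SLC30A8, the zinc carrier of insulin granules, had 0 counts in all 4 tendons, which allows up to 0.0979 to 0.152 CPM. SLC30A10, SLC39A12, SLC30A2, SLC30A3 and SLC39A2 had means from 0.0114 to 0.289 TPM, with up to 18 counts for SLC30A3 and 15 for SLC39A2 in tendon 4. Among genes of zinc handling outside these families, 4 of 7 listed had an entry. The metallothionein entry named MT3, a zinc-binding protein, stood at 272, 248, 209 and 155 TPM in tendons 1 to 4, and MTF1, the zinc-sensing transcription factor, at 9.91 ± 0.673 TPM. Metallothionein genes are close copies of each other, and 3 others listed (MT1A, MT2A and MT2D) had no entry, so the reads named MT3 are uncertain.

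The SLC35 family summed to 269, 266, 273 and 294 TPM in tendons 1 to 4 (276 ± 12.8 TPM, SD, n = 4), the smallest class sum of the 4 named classes. Of 20 genes, 17 reached 1 TPM and 10 reached 10 TPM. The SLC25 sum was 4.50, 4.44, 4.06 and 4.40 times the SLC35 sum (mean log2 ratio 2.12 ± 0.07; exact sign-flip permutation p = 0.13, adjusted p = 0.146). The leading member, SLC35F5, has no nucleotide sugar assigned here. It lies at 69383499 to 69433149 of chromosome 7 (plus strand) and stood at 64.6, 65.99, 67.7 and 84.7 TPM in tendons 1 to 4. In TPM tendon 4 lay above the others, which were close together; in TMM-normalised CPM (66.7, 77.4, 72.4 and 88.00) tendon 4 was again highest but the tendons were evenly spread.

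Several SLC35 members carry substrates of sulfated sugar chains; SLC35B2, a Golgi carrier of the sulfate donor PAPS, had no entry. SLC35B3, the other PAPS carrier, stood at 27.8, 19.3, 22.2 and 21.7 TPM in tendons 1 to 4. SLC35B4, a carrier of UDP-xylose and UDP-N-acetylglucosamine, stood at 25.2, 24.2, 23.2 and 24.1 TPM. SLC35D1, which brings UDP-glucuronic acid and UDP-N-acetylgalactosamine to the endoplasmic reticulum for chondroitin sulfate, stood at 16.2, 21.8, 17.2 and 19.9 TPM. SLC35B4 varied little between tendons, whereas SLC35D1 was highest in tendon 2 and SLC35B3 in tendon 1, in TPM and in TMM-normalised CPM alike.

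Carriers of other sugar donors followed. SLC35A3, a UDP-N-acetylglucosamine carrier, stood at 11.7 ± 1.99 TPM, SLC35A2, the UDP-galactose carrier, at 9.68 ± 0.685 TPM, and SLC35C1, the GDP-fucose carrier, at 3.62 ± 0.684 TPM. SLC35D2 had a mean of 1.71 ± 0.612 TPM. SLC35B1, which exchanges ATP into the endoplasmic reticulum, stood at 18.9, 25.4, 20.6 and 21.8 TPM in tendons 1 to 4. SLC35A4, SLC35C2 and SLC35A5 had means of 27.6 ± 3.11, 20.1 ± 0.0971 and 13.9 ± 2.82 TPM. SLC35C2 differed between tendons by less than 1 TPM (19.9 to 20.2 TPM). In TMM-normalised CPM it ranged from 35.3 to 40.4.

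The enzymes that make these donors were all above 1 TPM where measured: 15 of 18 listed genes had an entry, with a summed level of 712 ± 45.8 TPM. UGP2, which makes UDP-glucose, stood at 165 ± 16.5 TPM and UGDH, which makes UDP-glucuronic acid from it, at 107 ± 16.9 TPM. The PAPS synthases PAPSS1 and PAPSS2 stood at 53.0 ± 5.71 and 19.6 ± 5.02 TPM. In TMM-normalised CPM, 0 of these 15 genes had a range of 2-fold or more between tendons. The share among all genes whose mean reached 5 CPM was 12.5%. At that level the range was met by 2 of 15 other mitochondrial transport genes and 0 of 2 genes of zinc handling. It was also met by 2 of 9 low-numbered amino acid carriers, a list described below. No difference between these lists was tested.

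The amino acid carriers summed to 416, 300 and 324 TPM in tendons 1 to 3 and 317 TPM in tendon 4 (mean 339 ± 52.2 TPM, SD, n = 4). In TPM tendon 1 was highest and tendon 2 lowest. A mean of 1 TPM was reached by 12 of 17 genes (70.6%, against 63.0% of all genes and 75.4% of those with a symbol). The place of tendon 2 moved with the scaling. Of 11 carriers whose mean reached 5 CPM, 7 were lowest there in TPM and 4 in TMM-normalised CPM (against 45.4% and 23.6% of all genes). SLC38A2 (SNAT2), a sodium-coupled carrier of small neutral amino acids, led the class: it lies at 537941 to 550027 of chromosome 8 (plus strand) and stood at 187, 126, 159 and 140.5 TPM. SLC38A1 (SNAT1), its neighbour on the same strand at 585991 to 628760, stood at 31.8, 30.8, 25.2 and 37.5 TPM. SLC38A4, the other gene of this cluster (318605 to 338890), stood at 0.606, 0.856, 0.626 and 1.35 TPM. The ranges of the 3 neighbours did not overlap. The ratio of SLC38A2 to SLC38A1 was 5.88, 4.08, 6.29 and 3.75 in tendons 1 to 4 (mean log2 ratio 2.29 ± 0.37; exact sign-flip permutation p = 0.13, adjusted p = 0.146).

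SLC43A2 (LAT4), a carrier of branched-chain amino acids and other large neutral ones, stood at 69.3, 57.1, 38.8 and 41.98 TPM in tendons 1 to 4 (mean 51.8 ± 14.1 TPM). SLC38A6 had a mean of 32.5 ± 7.61 TPM and SLC36A4 one of 23.1 ± 6.60 TPM, both highest in tendon 1. SLC38A5 (SNAT5) stood at 9.45 ± 1.57 TPM. SLC36A1 (PAT1), the proton-coupled carrier of lysosomes, stood at 7.34, 6.06, 6.13 and 6.11 TPM, with tendon 1 above the others. In TMM-normalised CPM it stood at 8.73, 8.19, 7.56 and 7.32, and the gap between tendon 1 and the others was smaller.

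SLC36A2 (PAT2), a proton-coupled carrier known at the surface of brown fat cells, had the widest range between tendons of the 91 members whose mean reached 5 CPM. It stood at 3.77, 2.41, 3.91 and 11.8 TMM-normalised CPM in tendons 1 to 4, a range of 4.90-fold with tendon 4 on top. Without tendon 4 the range was 1.62-fold, and without tendon 2 it was 3.13-fold. The adipocyte markers (6 of 8 measured, none at 0) summed to 474, 859, 1018 and 1723 TMM-normalised CPM and the fast fibre markers to the values given above, both highest in tendon 4. The endothelial (633) and macrophage (296) sums were highest in tendon 4 as well. Of these sums, the macrophage one alone had the full order of tendons of SLC36A2. The part of any of these cell types in the result was not tested. In the list of 12 low-numbered amino acid carriers all had an entry and all reached 1 TPM, with a sum of 278 ± 27.0 TPM. SLC3A2, the heavy chain shared by several exchangers, led that list at 97.0 ± 17.7 TPM, followed by SLC1A4, a neutral amino acid exchanger, at 81.2 ± 11.3 TPM.

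**Figure D2:**
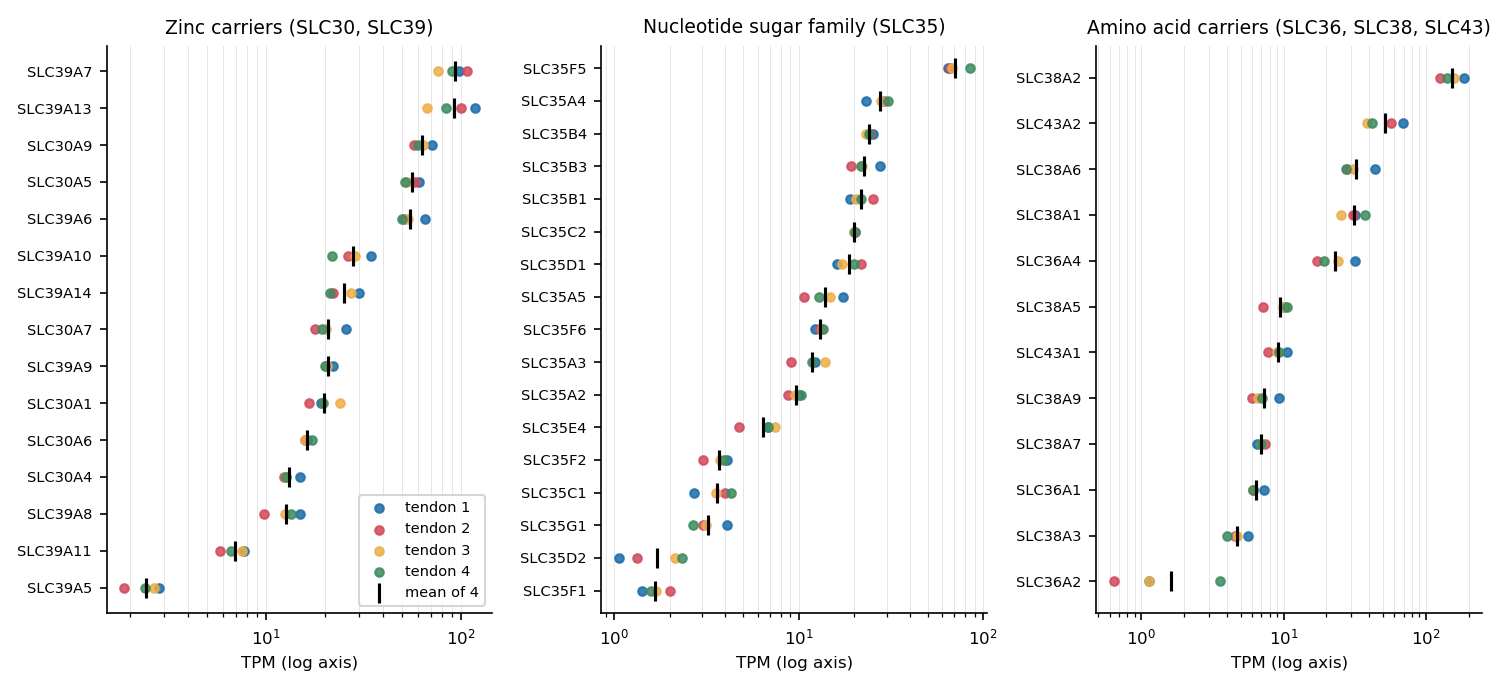
TPM on log axes of the zinc carriers (15 genes), the SLC35 family (17 genes) and the amino acid carriers (12 genes) whose mean reached 1 TPM. Points are the 4 tendons and black bars the mean; SLC39A7 and SLC39A13 lead the zinc carriers near 92 TPM, SLC35F5 leads its family at 70.8 TPM and SLC38A2 the amino acid carriers at 153 TPM, and tendon 4 stands to the right of the other tendons for SLC36A2.

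The 52 genes of other families summed to 603, 615, 649 and 660.1 TPM in tendons 1 to 4 (632 ± 27.0 TPM, SD, n = 4). Of these, 35 reached 1 TPM (67.3%, against 63.0% of all genes and 75.4% of those with a symbol). SLC29A1 (ENT1), the equilibrative carrier of adenosine and other nucleosides, led at 121, 121, 147 and 126 TPM. SLC28A2, a concentrative nucleoside carrier, stood at 5.25, 2.002, 4.62 and 4.89 TPM, with tendon 2 below the others.

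Among carriers of choline and lipid substrates, SLC44A1, a choline carrier, stood at 42.4, 35.7, 45.2 and 39.9 TPM in tendons 1 to 4. SLC44A2 (CTL2), of the same family, stood at 38.6, 89.9, 47.1 and 80.4 TPM. Its 2 higher tendons were 2 and 4, and its lowest was tendon 1. SLC27A4, a fatty acid transport protein, had a mean of 35.8 ± 4.55 TPM, and SLC27A6, of the same family and known from heart, stood at 13.9, 4.03, 5.33 and 8.73 TPM. SLC33A1, which carries acetyl-CoA into the endoplasmic reticulum, had a mean of 36.9 ± 4.90 TPM.

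Metal and heme carriers were spread over the middle of the range. SLC40A1 (ferroportin), the iron exporter, stood at 22.4, 21.01, 25.7 and 29.3 TPM in tendons 1 to 4. SLC41A1, a magnesium carrier, had a mean of 34.4 ± 2.44 TPM. SLC31A1 (CTR1), the copper importer, stood at 11.3 ± 1.06 TPM and its neighbour SLC31A2 on chromosome 1 at 10.2, 14.01, 14.4 and 14.1 TPM, with tendon 1 below the others. SLC48A1 (HRG1), a heme carrier, stood at 31.1, 41.1, 41.2 and 39.8 TPM, again with tendon 1 lowest. Its annotated transcript is only 441 bases long, so it ranked 21 among the members in TPM and 78 in CPM.

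Carriers of sulfate and sugar phosphates were also measured. SLC26A2, the sulfate carrier whose loss causes chondrodysplasias through undersulfated proteoglycans, stood at 10.6, 6.15, 14.1 and 6.13 TPM in tendons 1 to 4, with tendons 2 and 4 low and tendon 3 high. SLC26A11 had a mean of 13.1 ± 2.28 TPM. SLC37A4, the glucose-6-phosphate carrier of the endoplasmic reticulum, stood at 15.5, 17.9, 15.4 and 23.4 TPM, highest in tendon 4. Its relative SLC37A3 had a mean of 29.9 ± 1.25 TPM. SLC50A1, a sugar carrier, stood at 10.9 ± 1.56 TPM. SLC45A4 had a mean of 3.93 ± 1.32 TPM, SLC46A1, the proton-coupled folate carrier, one of 2.84 ± 1.62 TPM, SLC47A2 one of 2.82 ± 0.534 TPM and SLC34A2, a phosphate carrier, one of 1.60 ± 0.387 TPM. SLC51A, the higher of the SLC51 genes, had a mean of 0.796 TPM. SLC52A3, a riboflavin carrier, had a mean of 0.0293 TPM. SLC47A2 and SLC52A3 were the only genes of their families with an entry. The RefSeq symbols SLC47A1 and SLC52A2 had none, so the levels of these families as a whole are not known. SLC34A1, the phosphate carrier of kidney, had 0 counts in every tendon.

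**Figure D3:**
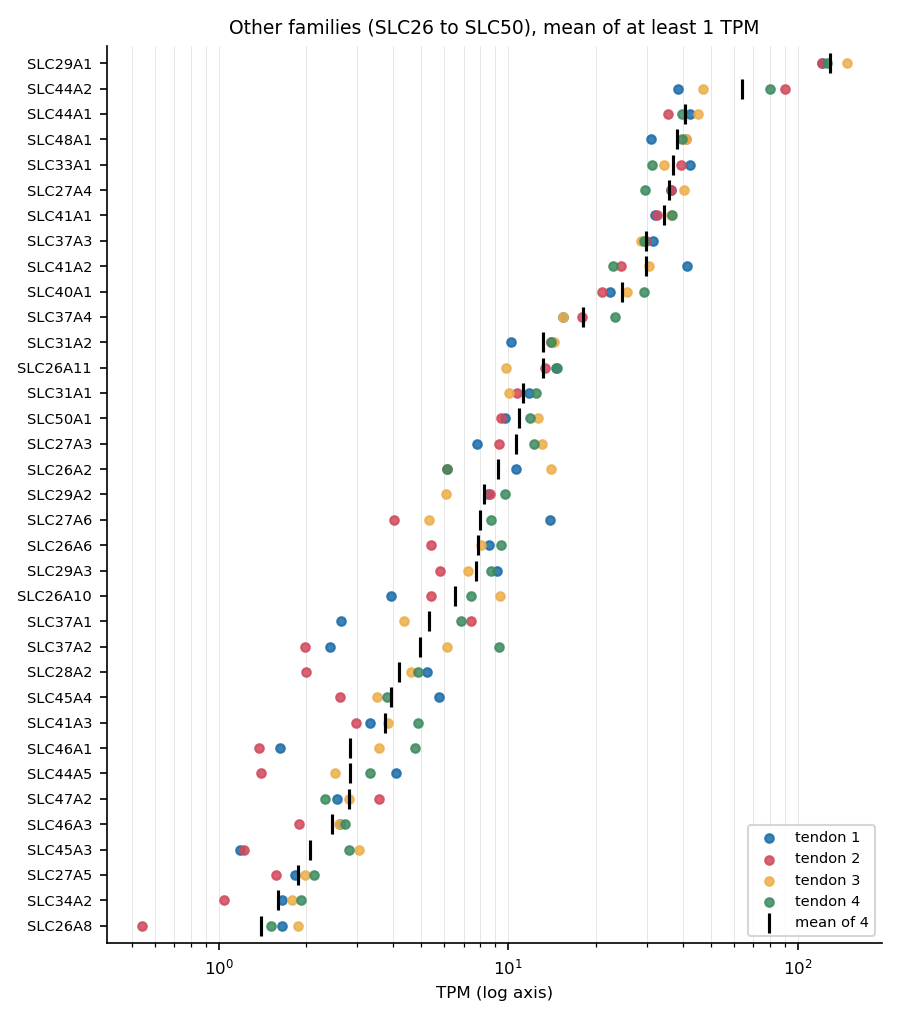
TPM on a log axis of the 35 genes of other families (SLC26 to SLC50) whose mean reached 1 TPM, ordered by mean. Points are the 4 tendons and black bars the mean; SLC29A1 leads at 129 TPM, and the points of SLC44A2, SLC27A6 and SLC37A2 are widely spread.

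Variation between tendons was read in TMM-normalised CPM, over the 91 members whose mean reached 5 CPM. The highest tendon stood at least 2-fold above the lowest for 10 of 91 members (11.0%), against 12.5% of the 10400 genes at that level, a share near the background. At least 4-fold was reached by SLC36A2 and SLC37A2 (2.2%, against 2.72% of all genes). Without tendon 1 or without tendon 2 the 2-fold count was 6, and without tendon 2 or without tendon 4 the 4-fold count was 0. These counts do not follow range alone. Without tendon 2, SLC37A1 still had a range of 2.60-fold, but its mean over the remaining tendons lay under 5 CPM. No share of all genes is given for these settings. The median range was 1.39-fold for the members and 1.35-fold for all genes. By class the median range was 1.26-fold for SLC25, 1.31-fold for the zinc carriers, 1.37-fold for the amino acid carriers, 1.41-fold for SLC35 and 1.54-fold for the other families. The range of at least 2-fold was met by 1 of 24 SLC25 genes (SLC25A27), 0 of 14 zinc carriers, 0 of 13 SLC35 genes, 1 of 11 amino acid carriers (SLC36A2) and 8 of 29 genes of other families. No test of a difference between these classes was made. In TMM-normalised CPM 29, 28, 15 and 19 members were highest in tendons 1 to 4, against 32.7%, 30.2%, 16.0% and 21.0% of all genes, and 29, 23, 16 and 23 were lowest, against 31.0%, 23.6%, 16.9% and 28.5%. These counts lay near the background and moved with the scaling: in TPM 9 members were highest in tendon 2 (9.89%, against 12.8% of all genes) and 42 lowest there (46.2%, against 45.4%). The biological coefficient of variation, edgeR's estimate of the spread between animals beyond counting error, had a median of 0.205 over 111 members and 0.205 over all 12740 genes kept by its filter. It was 0.183 for the 29 SLC25 genes kept.

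**Figure D4:**
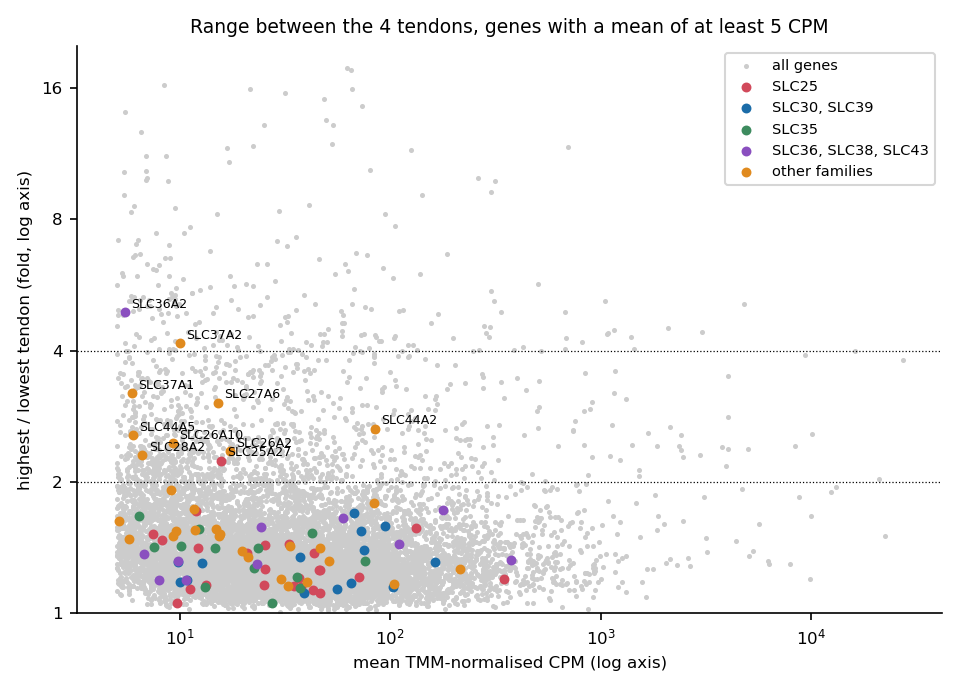
Highest over lowest tendon against mean TMM-normalised CPM, both on log axes, for genes whose mean reached 5 CPM; grey points are all genes (45 genes above 20-fold and 5 with a tendon at 0 are outside the axis) and coloured points the 91 members by class. Dotted lines mark 2-fold and 4-fold; 10 members lie above the lower line and 2 above the upper, and most members lie under it among the grey points.

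The widest ranges after SLC36A2 belonged to sugar phosphate carriers. SLC37A2, abundant in macrophages, stood at 4.76, 4.41, 12.5 and 18.4 TMM-normalised CPM in tendons 1 to 4, a range of 4.16-fold. Tendons 3 and 4 were high and tendons 1 and 2 low. Macrophage markers (7 of 7 measured, none at 0) summed to 144, 125, 277 and 296 TMM-normalised CPM. SLC37A2, SLC36A2, SLC34A2 and SLC38A5 had the same order of tendons (4.4% of the members, against 3.27% of all genes). Single macrophage markers differed: in TPM, MRC1 was highest in tendon 3 (31.2, against 25.8 in tendon 4), and C1QB and CD163 were lowest in tendon 1. CD68, C1QA, C1QC and CSF1R had the order of the sum in TPM. The part of macrophage RNA in the result was not tested. SLC37A1 stood at 2.77, 8.86, 4.74 and 7.20 TMM-normalised CPM, a range of 3.20-fold that was 1.87-fold without tendon 1.

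SLC37A1 and SLC44A2 shared the order of tendons of the common muscle marker sum, lowest in tendon 1 and highest in tendon 2. Single markers differed from their sum: in TPM, MYLPF, NEB, CASQ2, DES and PYGM were highest in tendon 4. The range of MYLPF in TMM-normalised CPM (68.9-fold) was near that of the fast fibre marker MYL1 (66.9-fold). SLC44A2 stood at 48.1, 128, 60.9 and 101 TMM-normalised CPM, a range of 2.65-fold. In all, 9 of 91 members had the order of the muscle sum (9.89%, against 9.07% of all genes), a share near the background. The others were SLC25A3, SLC25A39, SLC30A6, SLC35A4, SLC35B1, SLC35C1 and SLC35D1. The part of muscle RNA in their values was not tested. The order of the fast fibre sum was met by SLC25A1, SLC25A20, SLC35F5 and SLC37A4 (4.4%, against 6.26% of all genes). The adipocyte and endothelial sums shared 1 order, met by SLC40A1 and SLC41A3 (2.2%, against 4.91% of all genes). Here too single markers differed from their sum. In TPM, PECAM1, KDR and TEK were highest in tendon 3, and VWF and CDH5 in tendon 4. The adipocyte markers were all highest in tendon 4, but LPL was lower in tendon 3 (95.9 TPM) than in tendon 2 (96.5 TPM). LEP and LIPE were lower in tendon 2 than in tendon 1.

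Of the 10 members with a range of at least 2-fold, a further set was lowest in tendon 2 and highest in tendon 1. SLC27A6 stood at 25.7, 8.45, 10.2 and 16.2 TMM-normalised CPM in tendons 1 to 4, a range of 3.04-fold that was 1.92-fold without tendon 1. SLC44A5, SLC28A2 and SLC25A27 had the same order, with ranges of 2.56-fold, 2.31-fold and 2.24-fold. Without tendon 2 the range of SLC44A5 was 1.56-fold. For SLC28A2 the range was 1.10-fold without tendon 2, since the other tendons lay between 7.37 and 8.08 TMM-normalised CPM. None of the 7 marker sums plotted had this order. Members with narrower ranges, SLC45A4 and SLC39A8 among them, had this order as well. The share of all genes with it is not given here, so the set is not described as particular. SLC26A2 stood at 19.1, 12.6, 26.2 and 11.1 TMM-normalised CPM, a range of 2.36-fold that was 1.72-fold without tendon 3. SLC26A10 stood at 5.39, 8.38, 13.2 and 10.2 TMM-normalised CPM, a range of 2.45-fold that was 1.58-fold without tendon 1. The RefSeq annotation of assembly mOryCun1.1 has no SLC26A10 symbol but lists SLC26A10P.

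**Figure D5:**
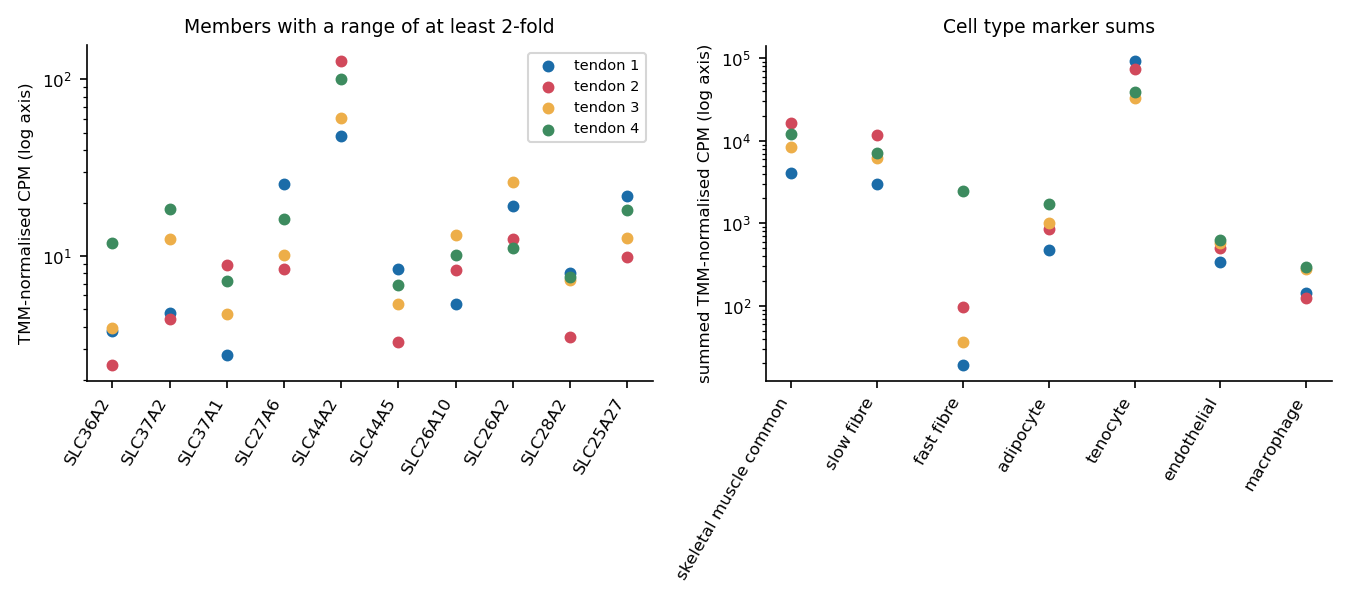
Left, TMM-normalised CPM (log axis) in each tendon of the 10 members with a range of at least 2-fold; right, summed TMM-normalised CPM (log axis) of the cell type marker lists. Tendon 4 is highest for SLC36A2 and SLC37A2, tendon 2 for SLC37A1 and SLC44A2 and for the common muscle and slow fibre sums, and tendon 4 stands far above the others for the fast fibre sum.

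Members next to each other within 200000 bases formed 13 pairs, some close in level and some not. SLC31A1 and SLC31A2 on chromosome 1 stood at 11.3 and 13.2 TPM. SLC25A43 and SLC25A5 on X lie 13377 bases apart on the same strand at 21.97 and 193 TPM. SLC26A9 and SLC41A1 on chromosome 16 lie 43160 bases apart at 0.207 and 34.4 TPM. SLC36A3, SLC36A2 and SLC36A1 form a cluster on chromosome 3 at 0.966, 1.62 and 6.41 TPM. SLC25A43, SLC26A9 and SLC36A3 were named here for their position next to another member.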

How the data were processed

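RNA was measured by poly(A)-selected sequencing in 4 tendons from 4 animals. The authors deposited estimated counts per transcript, with the transcript length beside them as another deposited column; the submitters' processing notes name bcl2fastq, FastQC, kallisto 0.42.4 and the build OryCun2.0. Strand handling and filters are not given in the sources used here, so reads of overlapping or antisense genes cannot be told apart. Columns of other samples numbered 0. Totals were 19759696, 30646052, 27304439 and 30038827 estimated counts.

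From these counts TPM and CPM per gene were computed (Python 3.11.15, numpy 2.4.6, pandas 2.3.3, scipy 1.17.1, matplotlib 3.10.9). For edgeR 4.0.16 (R 4.3.3), the estimated counts were rounded and scaled by TMM, and the dispersion fit, on genes reaching 1 CPM in 2 or more tendons, was tested on simulated data. DESeq2 1.42.0 gave alternative size factors. With 1 group no contrast was fitted. Ratios within a tendon used an exact permutation of signs (two-sided), with Benjamini-Hochberg adjustment over the 7 ratios measured of 11 listed. TPM shifted the median gene of tendon 2 by -0.12 (log2) against TMM-normalised CPM, and the other tendons by 0.01 to 0.06.

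The members and lists were chosen with earlier results of these data known. Named genes were the 14 SLC25, 6 zinc, 8 SLC35 and 6 amino acid carriers of highest mean TPM, the leader of each other family, the 10 members with the largest SD of log2(CPM + 1), 47 genes set by name (7 without an entry), and genes behind small counts. Names were compared with RefSeq symbols of assembly mOryCun1.1: 142 of 144 members matched, and 31 RefSeq symbols of these families had no entry under that name.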

Additional observations from a re-analysis of the deposited data

Results flagged for a closer look

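For 6 of 86 values tested, 1 tendon lay apart from the other 3 by a share of the whole range above the critical value of Dixon's test for 4 samples. Chance flags about 1 in 20 such groups, 4.3 values here. Tendon 4 was the high one for SLC25A1 (gap 0.9278 of the range; 80.6 TPM against 56.2 to 58.01), SLC35F5 (0.8463; 84.7 TPM against 64.6 to 67.7) and SLC25A31 (0.9483; 19 counts against 0 or 1). Tendon 1 was the high one for SLC36A1 (0.9403; 7.34 TPM against 6.06 to 6.13). Tendon 1 was the low one for SLC31A2 (0.9126; 10.2 TPM against 14.01 to 14.4) and SLC48A1 (0.865; 31.1 TPM against 39.8 to 41.2). These gaps were in TPM. In TMM-normalised CPM, a comparison chosen after seeing the data, SLC25A31 alone of the 6 stayed past the critical value (0.942); the gaps were 0.611 for SLC25A1, 0.496 for SLC35F5, 0.383 for SLC36A1, 0.689 for SLC31A2 and 0.574 for SLC48A1. On that scale 5 other named genes passed it: SLC26A11 (0.866), SLC28A2 (0.844), SLC30A1 (0.845), SLC36A2 (0.840) and SLC41A1 (0.845).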

How the results depend on the processing

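No paired analysis was possible because there was 1 group of tendons. The summed levels in CPM, not divided by length, were 1122 for SLC25, 815 for the zinc carriers, 338 for SLC35, 816 for the amino acid carriers and 963 for the other families, so the amino acid and zinc carriers moved closer to SLC25. Without the 13 mitochondrially encoded genes the sums in TPM were 1354 for SLC25, 592 for the zinc carriers, 311 for SLC35 and 714 for the other families, since fewer genes then share the fixed total. Without division by length the log2 ratios that changed sign were SLC25A12 to SLC25A13 (-0.00779), SLC25A37 to SLC25A28 (0.77) and SLC39A14 to SLC39A13 (0.19). The count of members with a 2-fold range was 16 with a minimum of 1 CPM, and 6 to 9 with 1 tendon left out (6 without tendon 1 and 6 without tendon 2). Without tendon 2 the mean of SLC37A1 lay under 5 CPM, although its range was 2.60-fold. The count with a 4-fold range was 0 with 1 CPM added, with the minimum of 5 CPM or with none, and 0 to 2 with 1 tendon left out (0 without tendon 2 and 0 without tendon 4). The shares of all genes given above (12.5% and 2.72%) hold for the minimum of 5 CPM and all 4 tendons. The counts under other settings therefore have no background beside them. Which tendon was highest or lowest depended on the scaling. In TMM-normalised CPM 29, 28, 15 and 19 of 91 members were highest in tendons 1 to 4, and 29, 23, 16 and 23 were lowest. In TPM 9 were highest in tendon 2 and 30 in tendon 4, and 42 were lowest in tendon 2 and 10 in tendon 4; all genes moved alike (12.8% and 29.7% highest, 45.4% and 16.4% lowest). With 1 tendon left out, 21 to 27 were highest in tendon 3 and 24 to 31 in tendon 4, and 26 to 36 were lowest in tendon 2 and 25 to 29 in tendon 3, since the remaining tendons share the places. Of 74 named levels, 57 moved by more than 1 SD in CPM and 3 when the most abundant transcript alone was used (SLC25A46, SLC30A5 and SLC35D1). Genes under the floor of 0.0979 to 0.152 CPM cannot be ranked at this depth.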

Other observations

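Several members rested on annotated transcripts in ways that differed between tendons or shaped the level. SLC45A4 (scaffold GL019120, 35315 to 70775, minus strand) has transcripts of 4251 and 4314 bases over the same span. The second took 0.0%, 33.5%, 45.8% and 58.1% of the gene's TPM in tendons 1 to 4, while the gene's level was 5.74, 2.62, 3.53 and 3.82 TPM. For SLC30A5 the transcript of 2280 bases took 66.8%, 71.7%, 64.1% and 61.3% of the gene's TPM, and the rest fell to one of 5521 bases. For SLC39A13 the transcript of 1393 bases took 74.9% to 78.6%. These shares are estimates over overlapping transcripts, with no interval in the table.

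Zinc and amino acid carriers were often highest in tendon 1. Of 14 zinc carriers whose mean reached 5 CPM, 8 were highest in tendon 1 and 8 lowest in tendon 4 in TMM-normalised CPM, against 32.7% and 28.5% of all genes. With DESeq2 size factors these counts were 8 and 9, in TPM 11 and 5, and in CPM 6 and 3, and the share of all genes lowest in tendon 4 was 30.7%, 16.4% and 13.2% under these scalings. Of 11 amino acid carriers, 7 were highest in tendon 1 under each of these scalings, against 32.7%, 32.9%, 41.9% and 23.6% of all genes. These orders were noticed in these data, and no difference between classes was tested.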
